A study of Macrobrachium rosenbergii with 9 samples.

Results

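Ovary was compared with testis, the gonads of the 2 sexes, in adult Macrobrachium rosenbergii, the giant freshwater prawn. The comparison took all 6 gonad libraries of the 9 in the series: 3 ovary libraries from females and 3 testis libraries from males, all of the strain labelled CMr1, with no treatment or genetic change named in the labels. The other 3 libraries, of the male androgenic gland, entered no test. By its title the study looked among gonad profiles for transcription factors with a part in sex determination. Whether prawns were pooled, or each library had its own animal, is not in the labels, so the p-values rest on a spread between libraries that may be technical.

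In decapod crustaceans the ovary grows oocytes, which take up yolk proteins and store RNAs and proteins for the early embryo. The testis carries germ cells through meiosis into sperm, and decapod sperm lack a flagellum. Each organ mixes germ cells at several stages with somatic support cells, so fewer cells of a type and less RNA per cell cannot be told apart in such bulk libraries. In this species females are the sex with unlike sex chromosomes (ZW), while a hormone of the androgenic gland drives male development.

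The table lists 21071 transcripts by ID and gives no names of genes, and 0 IDs were found among the 31758 reference genes. The labelled tissues could therefore not be checked against marker genes, and transcripts are described by what the table carries: the word Female or Male in the ID (here the sex label), HQ or LQ, a number after the letter f, the length in bases, and the counts. The word was Female in 14774 IDs and Male in 6297. This layout is that of full-length transcript clusters from long-read sequencing, in which the number after f counts the full-length reads of a cluster. No source used here says whether the sex labels stand for long reads from the same organs, and the label therefore adds no independent evidence on direction. All counts below are of transcripts, of which a gene may have several with reads in common.

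Total counts lay between 9924448 and 11231560 in the ovary libraries and between 7142733 and 9868058 in the testis libraries. Enough counts for a test were present for 16498 transcripts. Testis 2 stood apart before any test: across tested transcripts its log2 level correlated at 0.843 with testis 1 and 0.869 with testis 3, against 0.940 between testis 1 and 3 and 0.901 to 0.930 among the ovary libraries. The common biological coefficient of variation, edgeR's relative spread between libraries, was 0.437 in ovary and 0.618 in testis, and 0.414 in testis without testis 2. The counts of calls over all transcripts, by fold change and by sex label, are therefore given with and without testis 2, while other counts are of all 6 libraries unless stated.

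In ovary 4570 transcripts were higher and 3277 were lower than in testis, which is 47.6% of those tested (27.7% higher and 19.9% lower). A transcript was called at an adjusted p under 0.05 and a fold change of at least 2 (quasi-likelihood F test of edgeR, adjusted by Benjamini-Hochberg). In 5981 tested transcripts (36.3%) every ovary library was above every testis library and in 4584 (27.8%) below, so in 64% the gonads did not overlap. Without testis 2 the numbers were 4695 higher and 3254 lower, 46.1% of 17230 tested (27.2% and 18.9%). Both fits shared 4200 of the ovary-higher transcripts, 91.9% of those called with 6 libraries and 89.5% of those called without testis 2. They shared 2895 of the ovary-lower ones, 88.3% and 89.0%. No transcript was called in opposite directions by the 2 fits. Calls lost when testis 2 was left out had a median absolute log2 fold change of 1.45 for the 370 higher and 1.32 for the 382 lower ones. Calls gained had a median of 2.36 for 495 higher and 1.81 for 359 lower ones. Of these, 163 higher and 144 lower ones had too few counts for a test with 6 libraries, against 0 of the calls lost. The medians of lost and gained calls are therefore not of like sets.

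**Figure D1:**
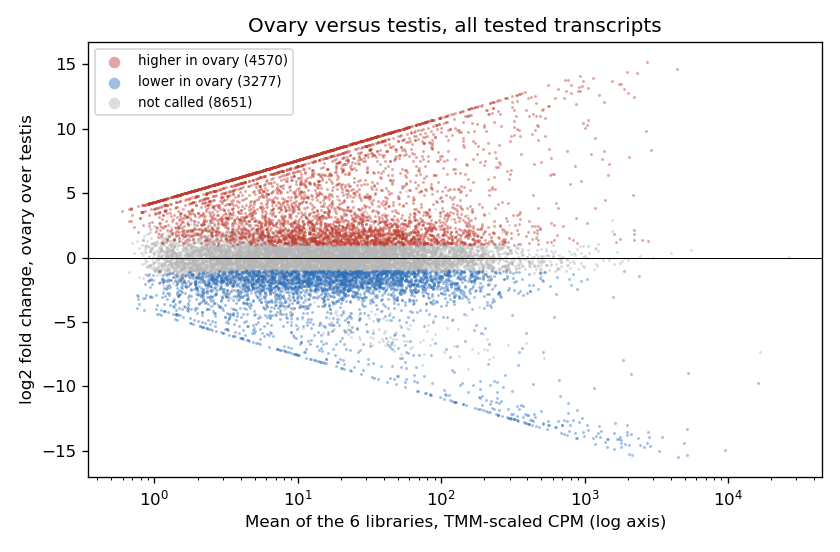
Log2 fold change of ovary over testis (vertical axis) against the mean TMM-scaled CPM (count share of a library, scaled to the bulk of transcripts) of the 6 libraries on a log axis, 1 point per tested transcript. The 4570 ovary-higher transcripts reach large changes at every abundance, the 3277 ovary-lower ones lie mostly nearer to 0, and the straight outer edges are transcripts with 0 or few counts in 1 gonad, where the fitted value depends on the prior count.

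Over both sex labels together, the transcripts higher in ovary differed by more than those lower in ovary. The median log2 fold change was 3.90 for the ovary-higher transcripts and -2.07 for the ovary-lower ones, with quartiles of 1.98 to 6.57 and of -3.16 to -1.49. Setting transcripts with 0 counts in 1 gonad to the bound that a floor of 3 counts over that gonad allows left the medians at 3.87 and -2.07. That step keeps them among the calls, although they passed the minimum count through 1 gonad only. Among the 15282 tested transcripts with counts in both gonads, 3500 (22.9%) were higher and 3131 (20.5%) lower in ovary. Their medians were 2.78 and -2.01, so the gap between the directions was smaller there. Past a fitted 16-fold change, 2251 transcripts were higher and 585 lower in ovary, or 2323 and 627 without testis 2. Past 256-fold the numbers were 629 and 229, or 627 and 269 without testis 2. At the far end the directions drew level, with 190 transcripts at least 1024-fold higher and 168 at least as much lower, or 197 and 193 without testis 2. The ovary-higher transcripts had a median of 26.3 CPM in ovary and 0.831 CPM in testis. For the ovary-lower ones the medians were 4.46 CPM in ovary and 28.2 CPM in testis. Levels were thus similar in the gonad where a transcript was high, and lower in the opposite gonad for the ovary-higher ones. The larger change on the ovary-higher side held within the female label, at median log2 fold changes of 4.40 and -1.79. Within the male label the order was reversed, at 1.80 for higher and -2.54 for lower ones.

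**Figure D2:**
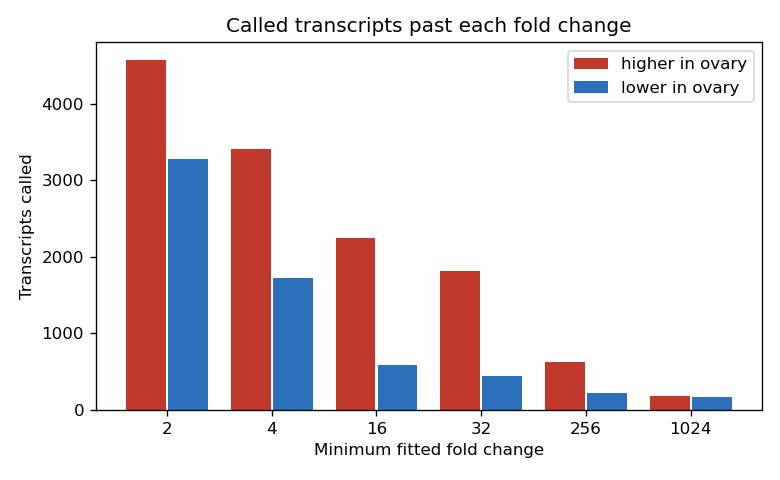
Number of called transcripts (vertical axis) whose fitted fold change reaches each minimum (horizontal axis), in the fit of 6 libraries, with red bars for higher and blue bars for lower in ovary. Red bars are well above blue ones from 4-fold (3413 and 1720) to 256-fold (629 and 229). At 1024-fold the pair is close to level (190 and 168). Both sex labels are joined.

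The called transcripts took a large part of the counts of the gonad where they were high. The 4570 ovary-higher transcripts took 51.1%, 51.6% and 53.0% of the counts in ovary 1 to 3 and 4.83%, 4.48% and 5.86% in testis 1 to 3. The 3277 ovary-lower transcripts took 5.38%, 5.25% and 5.32% of the counts in ovary 1 to 3 and 55.7%, 49.3% and 48.4% in testis 1 to 3. The transcripts were chosen on these libraries, so the shares describe them and are not a test. The 8651 tested transcripts without a call took 42.4% ± 1.03 of the counts in ovary and 41.6% ± 4.27 in testis (SD, n = 3 each).

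Testis concentrated its reads on fewer transcripts. The 100 most abundant transcripts of each library took 26.3%, 27.8% and 28.0% of the counts in ovary 1 to 3 and 43.6%, 42.9% and 35.9% in testis 1 to 3. The gonads did not overlap in this, with a two-sided exact permutation p of 0.1, the lowest value open to 3 against 3 libraries. Levels of at least 1 CPM were reached by 15655 ± 96.1 transcripts in ovary and 14176 ± 224 in testis (SD, n = 3 each), again without overlap (exact permutation p = 0.1). Both measures see only the transcripts listed, 14774 with the female label and 6297 with the male label. The part of this make-up in these differences, and in the excess of ovary-higher calls, was not tested.

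Whether calls carried over to a library that had no part in them was read from the fits that left out 1 library each. Levels were scaled with the TMM factors of all 6 libraries. As libraries of a gonad may not come from separate animals, the shares are a description. Among transcripts called without an ovary library, 93.1% to 97.5% had a level in that library nearer, on a log scale, to the other ovary libraries than to testis. For testis 1 and testis 3 as the library left out, this share was 95.4% and 94.4% for ovary-higher transcripts and 87.6% and 91.2% for ovary-lower ones. Testis 2 gave 93.3% of the 4695 ovary-higher transcripts and the lowest share of all, 83.2%, of the 3254 ovary-lower ones. Even so, 94.8% of those 3254 transcripts were higher in testis 2 than in each ovary library. With testis 1 left out this share was lower, at 94.0% of 3026 ovary-lower transcripts, and with testis 3 it was 98.1% of 2984. The direction of the calls thus held in the library left out for most transcripts, while the level in testis 2 often fell short or overshot.

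Testis 2 fell short in part of the testis transcripts. Of the 3254 transcripts called lower in ovary without testis 2, 570 were in testis 2 below 50% of their mean in testis 1 and 3, 242 below 10% and 189 below 1%. The share below 10% was 7.44%. With testis 1 left out in the same way it was close to that, at 6.54% (198 of 3026). With testis 3 left out it was 2.55% (76 of 2984). The 242 transcripts below 10% in testis 2 made up 62.1% of the 269 that were over 256-fold lower in ovary, but 0.526% of the 1522 that were 2-fold to 4-fold lower. By sex label they were 216 of 1688 male label transcripts and 26 of 1566 female label ones. Together the 242 transcripts took 0.0493%, 0.0431% and 0.0313% of the counts in ovary 1 to 3. In testis they took 0.0875% in library 2, against 36.7% in library 1 and 24.3% in library 3.

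Among the 156 of them that averaged at least 100 CPM in testis 1 and 3, the ovary mean stood at a median of 0.000882% of the testis 1 and 3 mean. Testis 2 stood at a median of 0.246% of it, with quartiles of 0.173% and 0.334%, and 8 of the 156 lay between 1% and 10%. The ratio hardly moved with abundance: its median was 0.253% for the 72 transcripts of at least 1000 CPM and 0.239% for the 84 between 100 and 1000 CPM. In testis 1 they were at a median of 2.02 times their testis 3 level. All 156 were drawn from the calls made without testis 2, and 102 of them were called lower in ovary in the fit of all 6 libraries. The other 54 were not, and they include any that had too few counts for a test with 6 libraries. The 519 other ovary-lower transcripts of at least 100 CPM had a median of 114% in testis 2. At this abundance the testis 2 levels thus lay mostly in separate bands.

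**Figure D3:**
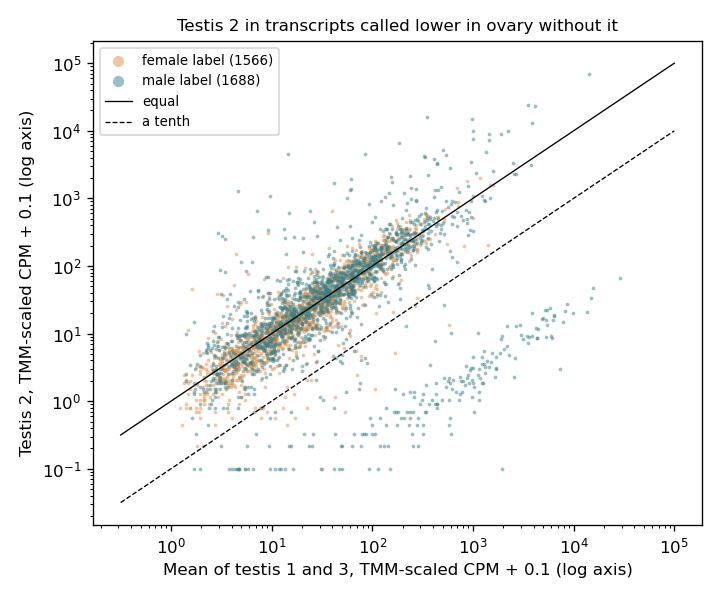
Level in testis 2 (vertical axis) against the mean of testis 1 and 3 (horizontal axis), both in TMM-scaled CPM plus 0.1 on log axes, for the 3254 transcripts called lower in ovary without testis 2, coloured by sex label. Most points follow the solid line of equal levels, and a band of mostly male label transcripts runs parallel to it far below the dashed line that marks 10%.

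In the other direction, 363 of the 3254 transcripts were more than 2 times as high in testis 2 as in testis 1 and 3. They took 0.238% to 0.281% of the counts in the ovary libraries, and 29.9% in testis 2 against 5.12% in testis 1 and 6.37% in testis 3. In androgenic gland 1 to 3 the same transcripts took 41.3%, 56.0% and 39.6%, while the 242 depleted ones took 1.47%, 0.124% and 2.23% there. So the part of the testis profile that was raised in testis 2 was also abundant in the androgenic gland libraries. The part of other tissue in these values was not tested.

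The single transcripts printed here are those with the highest level per length in the gonad where they were high, among transcripts called in both fits whose libraries did not overlap between gonads (4198 higher and 2886 lower in ovary). The highest in ovary was transcript_HQ_Female_transcript16105/f34p0/1271, of 1271 bases. It stood at 6784, 9309 and 10450.2 CPM in ovary 1 to 3 and at 0, 0.581 and 0.132 CPM in testis 1 to 3. All ovary libraries were high and within a factor of 2 of each other, while the testis libraries held 6 estimated counts in all. Per kilobase of length its level was 6961 ± 1476 CPM in ovary (SD, n = 3), with a log2 fold change of 14.63 and a rough SE, from the F statistic, of 1.30 (edgeR, adjusted p = 0.000605).

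The next was transcript_HQ_Female_transcript27549/f8p0/684, of 682 bases in the table. It stood at 2648, 4432 and 4807 CPM in ovary 1 to 3 and at 0, 0.232 and 0 CPM in testis 1 to 3. Its testis signal was 2 estimated counts, all in testis 2, and the ratio of ovary to testis was 47106, between 13040 and 388971 by counting error alone (95% interval). The fitted log2 fold change was 14.37, rough SE 1.13 (edgeR, adjusted p = 0.000453). Both ovary transcripts stayed called under each alternative run for them, among them the fits without testis 2, with log2 fold changes of 15.67 and 15.22.

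Both transcripts that led on the testis side were male label transcripts that were highest in testis 2, and the order depended on that library. By the mean of testis 1 and 3 alone, the first stayed at rank 1 of 2886 and the second was at rank 7. For transcript_HQ_Male_transcript11731/f2p0/617, of 617 bases, the levels were 110 CPM, 0.777 CPM and 4.33 CPM in ovary 1 to 3 and 17472, 68693 and 10717 CPM in testis 1 to 3. Ovary 1 held 1187 of the 1241 estimated counts found in ovary. The fit gave a log2 fold change of -9.71, rough SE 2.47 (edgeR, adjusted p = 0.0179). It was -8.51 without testis 2 (adjusted p = 0.0283), -13.54 without ovary 1 (adjusted p = 0.0104) and -9.16 without ovary 3, where the call was lost (adjusted p = 0.0593); over all alternatives its adjusted p ran from 3.47e-10 to 0.0593. Of all counts, this transcript took 4.48%, 8.66% and 5.29% in androgenic gland 1 to 3, 0.0120%, 0.0000766% and 0.000450% in ovary 1 to 3, and 1.49%, 5.99% and 1.14% in testis 1 to 3.

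The same pattern held for transcript_HQ_Male_transcript11121/f2p0/694, of 694 bases, at 58.6, 0.432 and 2.54 CPM in ovary 1 to 3 and 4560, 23400.3 and 3643 CPM in testis 1 to 3. Ovary 1 was again high among the ovary libraries and testis 2 among the testis libraries, without overlap between the gonads. Here the log2 fold change came to -9.00, rough SE 2.34 (edgeR, adjusted p = 0.0193), -7.64 without testis 2 (adjusted p = 0.0303), -12.67 without ovary 1 (adjusted p = 0.0102) and -8.46 without ovary 3, where the call was lost (adjusted p = 0.0615); the range over all alternatives was 6.5e-09 to 0.0615. In the androgenic gland libraries it took 1.77%, 4.75% and 1.90% of the counts. Of the 3277 ovary-lower transcripts 12 had at least 10 counts and over 10 times the level of both other ovary libraries in ovary 1, against 4 in ovary 2 and 3 in ovary 3. In ovary 1 these were 4 of the 92 transcripts that averaged at least 1000 CPM in testis and 5 of the 606 at 100 to 1000 CPM, where ovary 2 had 0 and 0 and ovary 3 had 1 and 0. Their source was not tested.

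**Figure D4:**
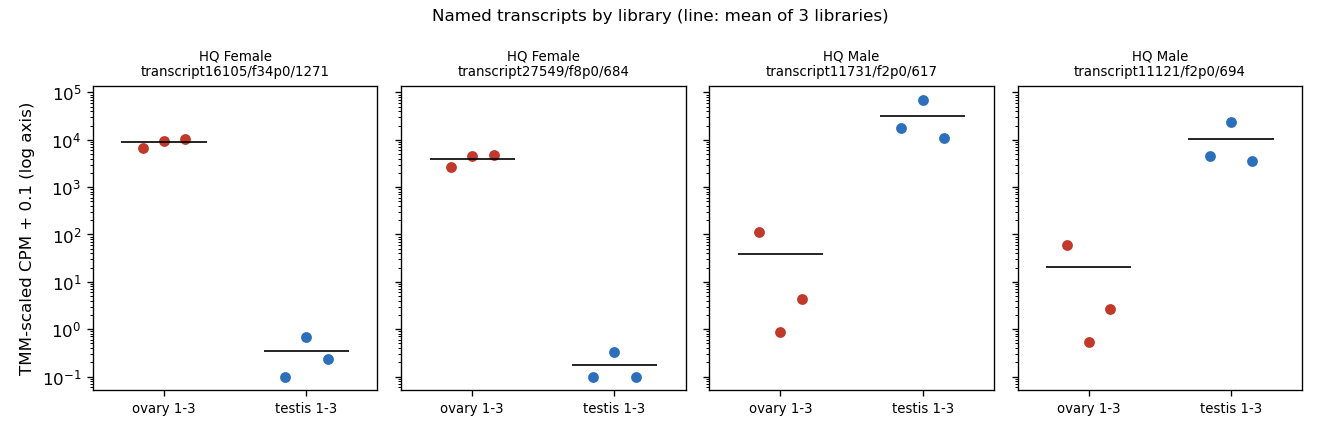
TMM-scaled CPM plus 0.1 on a log axis for the 4 named transcripts, 1 point per library in the order 1 to 3, ovary in red and testis in blue, with a line at the mean of the 3 libraries. Both female label transcripts are near the floor in every testis library, and both male label transcripts are highest in testis 2 (68693 and 23400.3 CPM) and, among ovary libraries, in ovary 1 (110 and 58.6 CPM).

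Some transcripts were seen in 1 gonad only. Among tested transcripts, 1070 had counts in each ovary library and 0 counts in every testis library, and 1063 of them carried the female label. With 3 counts over the testis libraries as the floor, 0.126 CPM, a transcript of this group was at least 110-fold higher in ovary at the median and at least 14686-fold higher at most. They were short, with a median length of 892.5 bases against 1665 for all tested transcripts, and 113 of them averaged 100 CPM or more in ovary. Among tested transcripts the reverse group was smaller and more abundant. Counts of 0 in every ovary library were found for 146 tested transcripts, 138 of them with the male label, at a median of 40.4 CPM in testis and at least 444-fold lower in ovary at the median. Before the minimum count, 1911 transcripts had ovary counts and 0 testis counts, and 837 had testis counts and 0 ovary counts. The minimum count thus kept a smaller part of the testis side, and the contrast in size and abundance depends on it. The tested transcripts of either group passed it only through the gonad where they were present. That all but fixed the call, and these numbers are a description. All of those tested were called with 6 libraries, and 1058 of the 1070 and 145 of the 146 without testis 2. The ovary group took 5.05% to 6.06% of the ovary counts, and the testis group took 1.67% to 7.03% of the testis counts.

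Most transcripts were present in both gonads, with at least 1 CPM in all 6 libraries for 11027. Of these 1898 were higher and 2277 lower in ovary, 37.9% of them. This floor removes more of the ovary-higher transcripts, whose median in testis was 0.831 CPM, than of the ovary-lower ones, whose median in ovary was 4.46 CPM, so the balance and the share of calls follow from the choice and are a description. Their median log2 fold change was -0.11 and the median absolute value 0.88. The lack of a call did not show equal levels. The 95% interval of the fold change lay within 2-fold in both directions for 2094 of the 8651 transcripts without a call (limma-voom with sample quality weights). For the other 6557 it reached beyond 2-fold in at least 1 direction.

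Among called transcripts, those with the female label were mostly higher and those with the male label mostly lower in ovary, while 5878 female label and 2773 male label transcripts had no call. Of 11569 tested female label transcripts 4081 (35.3%) were higher and 1610 (13.9%) lower. Of 4929 male label transcripts 489 (9.92%) were higher and 1667 (33.8%) lower. Without testis 2 the counts were 4185 and 1566 for the female label and 510 and 1688 for the male label. The size of the change followed the label too, with a median log2 fold change of 4.40 among female label and of 1.80 among male label transcripts that were higher in ovary, and of -1.79 and -2.54 among those that were lower. Female label transcripts took 67.8%, 68.5% and 69.4% of the counts in ovary 1 to 3 and 29.9%, 36.3% and 35.0% in testis 1 to 3. The difference of 34.8 percentage points had a two-sided exact permutation p of 0.1, the smallest possible with 3 libraries a side.

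Length separated the calls among female label transcripts and hardly among male label ones. Tested female label transcripts shorter than 1000 bases numbered 2595, and in ovary 54.7% of them were higher and 9.06% lower. For the 5050 of 1000 to under 2000 bases the shares were 34.5% and 13.2%, and for the 3924 of 2000 bases or more they were 23.4% and 18.0%. Among male label transcripts the ovary-higher share was 12.9%, 10.5% and 8.12% from short to long and the ovary-lower share 33.8%, 33.2% and 34.6%. The direction of calls within each of these 6 groups was the same without testis 2, without ovary 1 and under both other scalings. With the labels joined it was not: of all 5871 transcripts of 2000 bases or more, 1076 were higher and 1382 lower in ovary, whereas scaling to library size alone gave 1194 and 1187. The minimum count kept 3291 of 5664 transcripts under 1000 bases and 5871 of 6341 of 2000 bases or more. It was passed through ovary alone by 1063 female label transcripts with 0 testis counts, of median length 892 bases. The shares by length are therefore a description.

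**Figure D5:**
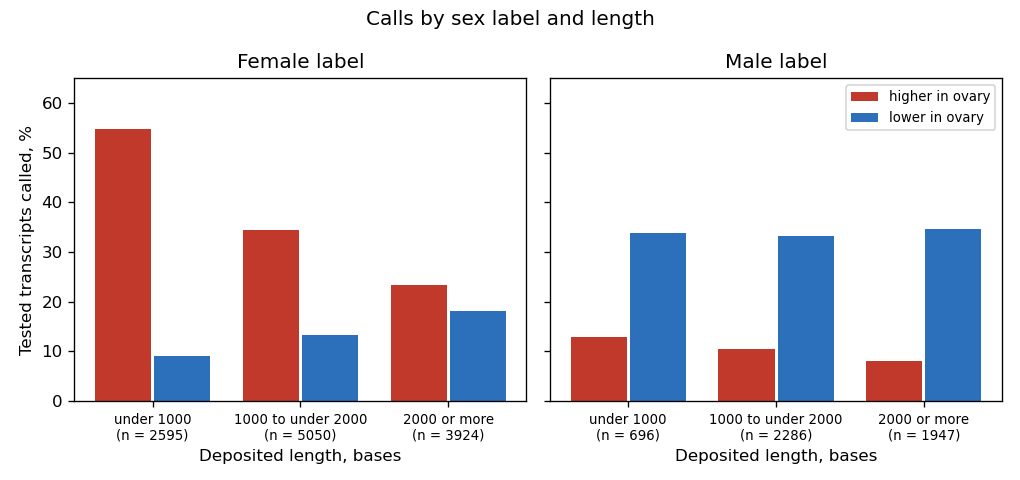
Share of tested transcripts called (vertical axis, %) by deposited length (horizontal axis, bases, with the number tested), female label on the left and male label on the right, with red bars for higher and blue bars for lower in ovary. Red bars fall with length under the female label (54.7% to 23.4%), while blue bars under the male label stay between 33.2% and 34.6%.

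Short transcripts were more often called higher in ovary, yet took less of its counts. Transcripts under 1000 bases held 14.5%, 16.1% and 16.1% of the counts in ovary 1 to 3 and 16.8%, 30.2% and 19.2% in testis 1 to 3. The high value was that of testis 2, and without it the means were 15.6% in ovary and 18.0% in testis. The named transcript of 617 bases alone took 1.49%, 5.99% and 1.14% in testis 1 to 3. That of 694 bases took 0.389%, 2.04% and 0.387%. Single abundant transcripts thus weigh on this difference, and their part was not tested. Transcripts of 2000 bases or more held 39.5% ± 1.28 of the counts in ovary and 33.1% ± 2.98 in testis (SD, n = 3 each, exact permutation p = 0.1, without overlap).

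The number after f, the full-length support of a transcript in the layout described above, went with the direction within each label. Among female label transcripts 55.6% of the 1035 with 10 or more were higher in ovary and 5.31% lower, against 29.5% and 16.5% of the 6108 with 2, the smallest number in the table. The median log2 fold change of the ovary-higher ones was 6.44 with 10 or more and 3.93 with 2. Among male label transcripts, 28.8% of the 723 with 10 or more were lower in ovary and 12.0% higher, against 36.5% and 7.98% of the 2244 with 2. The male label ovary-lower ones nevertheless had a larger median change with 10 or more, at a log2 fold change of -3.73 against -2.46 with 2. Better supported transcripts were also more abundant, with a median of 48.8 CPM for 10 or more and 9.94 CPM for 2 over both labels. By abundance alone, 44.0% of the 20% of tested transcripts with the lowest mean and 51.8% of the 20% with the highest mean were called.

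Many estimated counts have decimals, and 10899 tested transcripts had such a value in at least 1 of the 6 libraries. Of these 3154 (28.9%) were higher and 1945 (17.8%) lower in ovary. Of the 5599 whose 6 values were all whole numbers, within 1e-06, 1416 (25.3%) were higher and 1332 (23.8%) lower. The excess of ovary-higher over ovary-lower calls among transcripts with whole values depended on scaling and library, at 1526 higher and 1144 lower when scaled to library size alone and 1346 and 1157 without ovary 1. In the same settings transcripts with decimals had 3327 higher and 1684 lower, and 2974 and 1616. The difference between the groups was not tested, and the median abundance differed too, at 11.7 CPM for whole values and 16.2 CPM for values with decimals.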

How the data were processed

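The authors deposited 1 table of expected counts, that is estimated counts per transcript, many with decimals, beside a length in bases; the file headers name the columns read counts. Libraries were made with a directional kit per the labels' protocols. Bowtie 0.12.2, DESeq 1.10.1 and the mouse build mm8 are named, per the submitters' processing notes, with no roles. The sources used here do not give how the transcripts were built or counted, or the strand setting. Columns were matched to samples by the tissue abbreviations of the protocol.

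Counts were rounded to whole numbers. Transcripts were kept with filterByExpr (minimum count 10, minimum total 15), which left 16498 holding 97.2% to 99.6% of each library's counts. It dropped 601 with no count and 3972 with too few. TMM factors, which were 1.09, 1.04 and 1.05 in ovary 1 to 3 and 0.878, 0.896 and 1.08 in testis 1 to 3, scale to the bulk of transcripts. The test was edgeR 4.0.16 (R 4.3.3), a quasi-likelihood F test with a prior count of 1 and 4 residual degrees of freedom on the 6 gonad libraries, without androgenic gland. A call needed an adjusted p (Benjamini-Hochberg) under 0.05 with a log2 fold change of 1 or more in size. The rough SE divides the size of the log2 fold change by the root of F. The interval of a count ratio and the floors (3 counts, or 0.259 to 0.398 CPM in a single library) cover counting error only. The limma-voom intervals of the fold change include the spread between libraries. Alternatives used limma 3.58.1 and DESeq2 1.42.0, other scalings, filters and call rules, a replicate block, and each library left out. Single transcripts were chosen as the 2 highest per length in each direction. Transcript groups, lists and the naming rule were chosen with earlier results of these data known. Without names, no pathway or cell type list could be used.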

Additional observations from a re-analysis of the deposited data

How the results depend on the processing

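The number of ovary-higher transcripts lay between 3470 and 4911 over 15 alternatives and that of ovary-lower ones between 2047 and 3664, against 4570 and 3277. The value of 2047 came from testing against a fold change of 2 (glmTreat), which by construction asks for more than a fold change of 2 in the estimate, and was the only one beyond 1.5 times the main count. DESeq2 called 4911 higher and 3397 lower, and limma-voom with sample quality weights 4764 and 3473. Leaving out 1 library gave 4014 to 4695 higher and 2422 to 3254 lower. No transcript was called in opposite directions by any alternative and the fit reported. Scaling to library size alone put the median of all log2 fold changes at 0.26, against 0.11 with TMM, and gave 4853 higher and 2828 lower. The female label share differed by 32.9 to 37.1 percentage points over its 9 alternatives, and with 1 library left out by 32.9 to 36.1. Of the 4 named transcripts, both testis-side ones lost their call without ovary 3 and kept it in the other 14 alternatives each.

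Ovary and testis libraries share numbers in the labels but come from different sexes. Same-numbered libraries deviated from their tissue means with correlations of -0.128, -0.0754 and 0.00288, and differently numbered ones with -0.0599 to 0.12. With 3 libraries a side, such values cannot tell whether same-numbered libraries shared a batch. The main fit left them unpaired. A fit with the replicate block gave 4209 higher and 2737 lower. At 7142733 to 11231560 counts a library, small changes were within the spread of 3 libraries, as the wide intervals of most transcripts without a call show. With no gene names, several called transcripts may stand for 1 gene. The repeats of the counts by label, length, number after f and whole values without testis 2, without ovary 1 and under other scalings were added after the data were seen.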
